A study of Komagataella phaffii with 9 samples.

Results

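Transcript levels of 5 pentose phosphate pathway genes were followed in 3 strains of the methylotrophic yeast *Komagataella phaffii*, out of 5344 sequences quantified in 9 RNA-seq libraries. They were chosen by identifier with earlier results of these data known. Names were taken from a table limited to genes that passed the study's cutoffs in some comparison, so the 5 genes are selected for change. *ZWF1* (PP7435_Chr2-0993) and *GND2* (PP7435_Chr3-0944) stand for the oxidative branch, and *TKL1* (PP7435_Chr1-0919), *TAL1-1* (PP7435_Chr2-0357) and *TAL1-2* (PP7435_Chr2-0358) stand for the non-oxidative branch. Other genes of the pathway were not analysed here. The study asked how *CRA1*, which encodes a transcription factor of the Gal4 type, affects central carbon metabolism on glucose. All 3 strains were derived from CBS7435 and carried an eGFP reporter gene. The methods place this reporter under the GAP promoter. The control strain had no change at *CRA1*, the overexpression strain carried a *CRA1* overexpression cassette, and the *Δcra1* strain lacked the gene. One representative transformant of each strain was sequenced from 3 independent cultures, sampled during exponential growth in 20 mL of a mineral medium with 5 g L-1 glucose after a preculture with Zeocin. The spread between replicates therefore holds no difference between transformants.

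The pentose phosphate pathway starts at glucose-6-phosphate, where it parts from glycolysis. Its oxidative branch gives NADPH for biosynthesis and for defence against oxidants, and its non-oxidative branch exchanges carbon units between sugar phosphates, which links the pentoses used for nucleotides, histidine and aromatic amino acids to fructose-6-phosphate and glyceraldehyde-3-phosphate of glycolysis. In methylotrophic yeasts, rearrangements of the same kind also renew the xylulose-5-phosphate that takes up formaldehyde when methanol is the carbon source. *ZWF1* encodes glucose-6-phosphate dehydrogenase, the entry step, and *GND2* encodes 6-phosphogluconate dehydrogenase, the later NADPH-forming step. *TKL1* encodes transketolase. *TAL1-1* and *TAL1-2* both encode transaldolases and have consecutive identifiers, and *TAL1-2* is the copy that has been grouped with methanol assimilation in this species.

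Libraries held 106345 to 223824 estimated counts, so that a count of 3 corresponded to between 0.00134% and 0.00282% of a library. *CRA1* (PP7435_Chr1-1522) had 11 counts in each control library and 0 in each *Δcra1* library. Overexpression replicate 1 held 810 *CRA1* counts, replicate 2 held 95 and replicate 3 held 316, so every library matched its label. The share of counts on mitochondrial sequences was 0.0301% to 0.0572% in control, 0.0358% to 0.446% in overexpression and 0.130% to 0.282% in *Δcra1* libraries. All 45 estimates for the 5 genes (5 genes in 9 libraries) were whole numbers. The quantification tool kallisto splits reads that fit several sequences into fractions, and it gave no fractional estimate for either neighbouring transaldolase.

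In the control strain, *GND2* was the most and *ZWF1* the least abundant of the 5 transcripts, at percentiles 78.1 and 44.4 of all 5344 sequences by mean level, with the other 3 in between. Levels are given in TPM, a transcript abundance corrected for gene length and scaled to the same total in every library, as mean ± SD over 3 libraries. *GND2* stood at 141 ± 43.0 TPM, *TAL1-1* at 101 ± 61.0 TPM, *TAL1-2* at 47.6 ± 1.24 TPM, *TKL1* at 46.0 ± 19.0 TPM and *ZWF1* at 19.0 ± 7.51 TPM. Of the neighbours in this order, only *TKL1* and *ZWF1* did not overlap between libraries. In the overexpression strain the order was *TAL1-1* (343 ± 239 TPM), *GND2* (220 ± 94.9 TPM), *TKL1* (165 ± 70.0 TPM), *TAL1-2* (18.3 ± 2.23 TPM) and *ZWF1* (8.36 ± 9.47 TPM), and only *TKL1* and *TAL1-2* were separated. In the *Δcra1* strain *GND2* (107 ± 51.4 TPM) and *TAL1-1* (76.0 ± 17.7 TPM) came first and overlapped, and *TAL1-1* overlapped *ZWF1*, which was in the middle at 64.5 ± 17.2 TPM. *ZWF1* was separated from *TKL1* (36.3 ± 4.68 TPM), and *TKL1* from *TAL1-2* (13.6 ± 0.961 TPM). *ZWF1* thus moved from the lowest place to the middle in the strain without *CRA1*, and *TAL1-2* moved from the middle to the lowest.

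**Figure D1:**
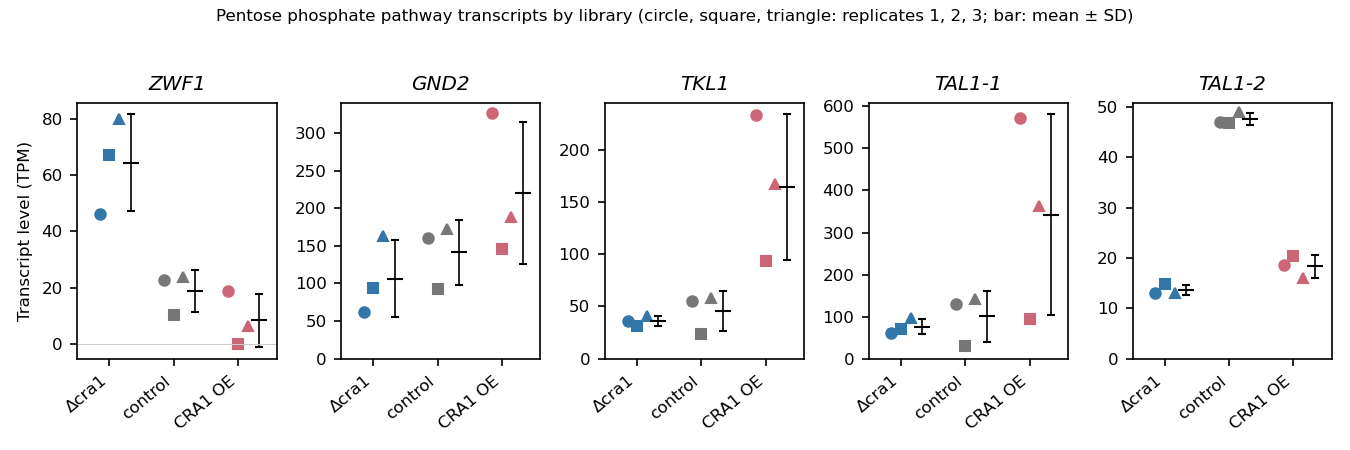
Transcript level in TPM of each of the 5 genes in the 9 libraries, 1 panel per gene with its own linear axis. Symbols mark replicates 1, 2 and 3 and the bar gives the mean ± SD of 3 libraries. *ZWF1* was highest in *Δcra1* (46.1 to 80.2 TPM), *TKL1* in the overexpression strain (93.5 to 233 TPM) and *TAL1-2* in the control (46.8 to 49.0 TPM).

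In the overexpression strain against the control, transketolase rose, and the transaldolase copies pointed in opposite directions without passing the test. *TKL1* stood at 55.4, 24.1 and 58.5 TPM in control replicates 1, 2 and 3 and at 233, 93.5 and 168 TPM in overexpression replicates 1, 2 and 3, from 21, 10 and 21 counts and 181, 32 and 75 counts. The groups did not overlap, as held for 37.7% of all tested sequences in either direction and for 11.6% with overexpression higher. The lowest overexpression library of *TKL1* lay above its highest control library. Its log2 fold change was 2.05 (SE 0.50, 95% interval 0.90 to 3.20, adjusted p = 0.040, edgeR quasi-likelihood test, Benjamini-Hochberg correction across 1986 sequences). Among those sequences, 5.34% had a larger log2 fold change than *TKL1*. *TKL1* was the 1 gene called higher of the 4 members that passed the count filter, at an adjusted p under 0.05 and a change of at least 1 on the log2 scale, where 7.15% of all tested sequences were called higher and 0.806% lower. No member was called lower by edgeR on these 6 libraries or by DESeq2 or limma, 1 (*TAL1-2*) was lower at an unadjusted edgeR p under 0.05, which 31.9% of all tested sequences passed in either direction, and *TAL1-2* was called lower in an edgeR fit of all 9 libraries (adjusted p = 0.046). That fit also called *TAL1-1* higher (edgeR adjusted p = 0.040), as did a fit with no count filter (edgeR adjusted p = 0.0020).

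*TAL1-1* had a fold change as large as *TKL1* and a wider spread. It stood at 131, 30.8 and 141 TPM in control libraries and at 571, 94.8 and 362 TPM with overexpression, so that overexpression replicate 2 lay within the control range. The log2 fold change was 2.02 (SE 0.74, 95% interval 0.34 to 3.71, edgeR adjusted p = 0.11), which did not pass. *TAL1-2* stood at 47.0, 46.8 and 49.0 TPM in control libraries and at 18.6, 20.4 and 16.0 TPM with overexpression. These groups did not overlap, as held for 37.7% of all tested sequences in either direction, but the values rested on 10, 11 and 10 counts against 8, 4 and 4 counts. *TAL1-2* thus passed the count filter through the control libraries, where it was high. The log2 fold change of *TAL1-2* was -1.26 (SE 0.38, 95% interval -2.12 to -0.40, edgeR adjusted p = 0.064), and 0.604% of the tested sequences had a lower one.

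Neither gene of the oxidative branch was called in the overexpression strain. *GND2* stood at 160, 92.1 and 172 TPM in control libraries and at 327, 145 and 189 TPM with overexpression, where the lowest library fell within the control range. Its log2 fold change was 0.84 (SE 0.44, 95% interval -0.16 to 1.84, edgeR adjusted p = 0.22). *ZWF1* did not pass the count filter, since its control libraries held 6, 3 and 6 counts and its overexpression libraries 10, 0 and 2. Its levels of 22.7, 10.3 and 23.8 TPM against 18.6, 0 and 6.42 TPM overlapped. For *ZWF1* a difference was not detectable at this depth. In RNA from whole cultures, fewer cells with a transcript and less of it per cell cannot be told apart.

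The order of the overexpression libraries was the same for *GND2*, *TKL1* and *TAL1-1*, with replicate 1 highest and replicate 2 lowest, which was also their order in *CRA1* counts (810, 316 and 95), in mitochondrial share (0.446%, 0.201% and 0.0358%) and in library total (213700, 139067 and 114609 counts). Their part in these differences was not tested. The call of *TKL1* was lost without control replicate 1, 2 or 3 or without overexpression replicate 3 (edgeR adjusted p = 0.098, 0.15, 0.12 and 0.078) and with limma (adjusted p = 0.18 and 0.20). Without overexpression replicate 2, *GND2* and *TAL1-1* were called higher too, at log2 fold changes of 1.07 and 2.41 (edgeR adjusted p = 0.030 and 0.0023), and without overexpression replicate 1 the values of *GND2*, *TAL1-1* and *TKL1* were 0.17, 1.17 and 1.45.

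In the *Δcra1* strain against the control, the transcript of the oxidative branch's entry enzyme was called higher and that of 1 transaldolase lower. *ZWF1* stood at 46.1, 67.3 and 80.2 TPM in *Δcra1* replicates 1, 2 and 3, from 22, 34 and 38 counts, all above the highest control library at 23.8 TPM. The control libraries held only 6, 3 and 6 counts, so *ZWF1* passed the filter through the *Δcra1* libraries, where it was high. The log2 fold change was 1.58 (SE 0.41, 95% interval 0.74 to 2.42, adjusted p = 0.0028, edgeR quasi-likelihood test, Benjamini-Hochberg correction across 2392 sequences), and 6.23% of these sequences had a larger one. *TAL1-2* fell to 13.1, 14.8 and 13.1 TPM, from 5, 6 and 5 counts, and did not overlap the control, like *ZWF1* and 48.8% of all tested sequences. *TAL1-2* passed the filter through the control libraries, where it was high, at 10, 11 and 10 counts. Its log2 fold change was -1.97 (SE 0.43, 95% interval -2.85 to -1.10, edgeR adjusted p = 0.00043), and 2.51% of the sequences had a lower one. These were the 1 member called higher and the 1 called lower of 5 tested, where 13.1% of all tested sequences were called higher and 8.53% lower.

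The other 3 genes were not called in the *Δcra1* strain and had negative log2 fold changes of similar size. *GND2*, at 62.7, 93.9 and 163 TPM, had a value of -0.60 (SE 0.26, edgeR adjusted p = 0.068). *TKL1*, at 36.2, 31.7 and 41.1 TPM, had a value of -0.50 (SE 0.32, edgeR adjusted p = 0.22). *TAL1-1*, at 61.9, 70.2 and 95.9 TPM, had a value of -0.58 (SE 0.38, edgeR adjusted p = 0.23). For all 3, the *Δcra1* and control libraries overlapped, and control replicate 2 was the lowest control library. Without that library *TAL1-1* was called lower, at -1.05 (edgeR adjusted p = 0.032). The call of *ZWF1* was lost with 1 fit over all 9 libraries (edgeR adjusted p = 0.083) and with limma (adjusted p = 0.059 and 0.063), and that of *TAL1-2* held in every setting in which it was tested, at adjusted p-values up to 0.024.

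Set directly against each other, the overexpression and *Δcra1* strains differed in all 4 members tested, with the branches' entry and exchange steps on opposite sides. *TKL1* was higher in the overexpression strain by 2.33 on the log2 scale (SE 0.36) and *TAL1-1* by 2.36 (SE 0.50), with edgeR quasi-likelihood adjusted p-values of 0.00046 and 0.0051 after Benjamini-Hochberg correction across 3071 sequences. *GND2* was higher by 1.23 (SE 0.38, edgeR adjusted p = 0.040). *ZWF1* had a log2 fold change of -2.49 (SE 0.62, edgeR adjusted p = 0.013), so that genes of the oxidative branch were called in both directions. Here too, *ZWF1* passed the filter through the *Δcra1* libraries. The 3 genes called higher and the 1 called lower stood beside 9.8% and 5.67% of all tested sequences, and 1.01% had a lower value than *ZWF1*. *TAL1-2*, at 16.0 to 20.4 TPM and 13.1 to 14.8 TPM, had too few counts (4 to 8 per library) to pass the filter. This comparison shares its libraries with the preceding ones and is no independent evidence of their directions. The call of *GND2* was lost with DESeq2 (adjusted p = 0.051), with scaling by library totals (edgeR adjusted p = 0.085) and without any single library except overexpression replicate 2, and that of *ZWF1* without *Δcra1* replicate 2 or 3 (edgeR adjusted p = 0.060 each). Without overexpression replicate 1 the log2 fold change of *ZWF1* was -4.00 and that of *TAL1-1* was 1.69, and limma gave -3.60 and -4.77 for *ZWF1*, which had 10, 0 and 2 counts with overexpression. With limma only *TKL1* was called here.

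**Figure D2:**
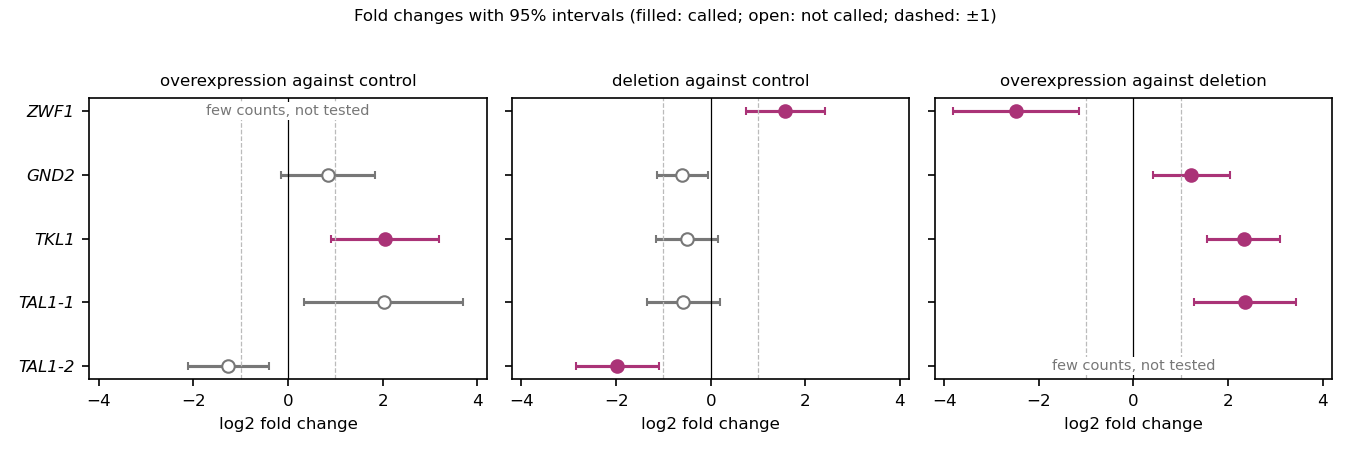
Log2 fold change of the 5 genes in the 3 comparisons, with 95% intervals from edgeR's quasi-likelihood fit of 6 libraries each. Filled points passed an adjusted p under 0.05 and a log2 fold change of at least 1 in size, and genes with too few counts are marked. *TKL1* was called against both other strains (2.05 and 2.33), and *TAL1-2* only in *Δcra1* against the control (-1.97).

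The balance between the branches can be read within each library, since TPM values of 1 library share its depth and scaling. The oxidative genes made up 44.0%, 50.2% and 44.0% of the summed TPM of the 5 genes in control replicates 1, 2 and 3, and 29.6%, 41.0% and 26.3% in the overexpression libraries. In the *Δcra1* libraries they made up 49.5%, 58.0% and 61.8%. The overexpression libraries lay below all control libraries, while the lowest *Δcra1* library lay within the control range. The oxidative sum was 160 ± 50.5 TPM (SD, n = 3) in the control, 229 ± 104 TPM with overexpression and 171 ± 67.8 TPM without *CRA1*. The non-oxidative sum was 195 ± 80.9 TPM in the control, 526 ± 308 TPM with overexpression and 126 ± 21.1 TPM without *CRA1*. Both sums were thus higher on average with overexpression, the non-oxidative one by more. The summed TPM was 416, 204 and 445 for control libraries, 1169, 354 and 741 for overexpression libraries and 220, 278 and 393 for *Δcra1* libraries, and the ranges of any pair of strains overlapped. No test was run on these sums and shares, as the genes were chosen together.

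**Figure D3:**
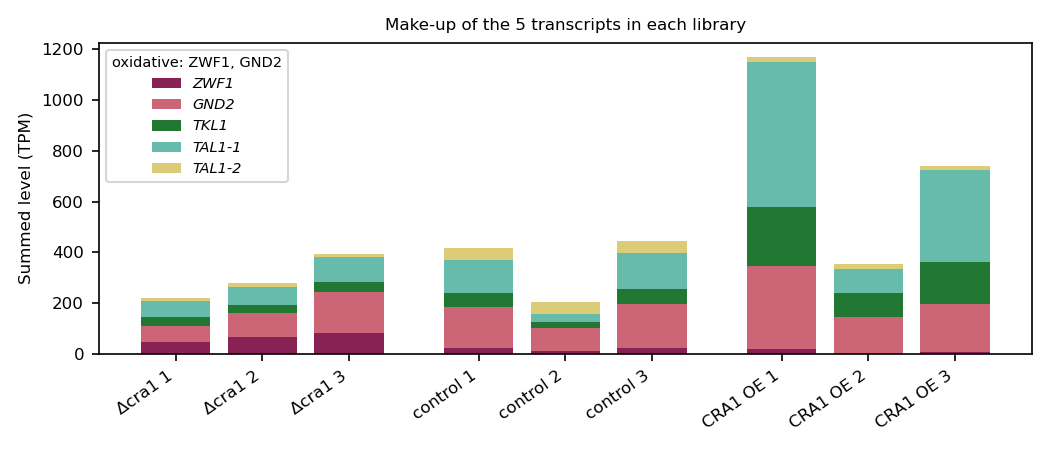
Summed level in TPM of the 5 genes in each library, stacked by gene, with the oxidative genes *ZWF1* and *GND2* at the bottom of each bar. The sum ran from 204 TPM in control replicate 2 to 1169 TPM in overexpression replicate 1, and the oxidative share from 26.3% in overexpression replicate 3 to 61.8% in *Δcra1* replicate 3.

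Within the oxidative branch, the genes did not keep a fixed proportion. *ZWF1* gave 12.4%, 10.1% and 12.2% of the oxidative TPM in control libraries, 5.39%, 0% and 3.29% with overexpression and 42.4%, 41.8% and 33.0% without *CRA1*. The *Δcra1* shares lay above those of the other strains, while the overexpression shares rested on 10, 0 and 2 *ZWF1* counts against 6, 3 and 6 in the control, too few to read as apart from it. *PGI1* (PP7435_Chr3-0754), phosphoglucose isomerase, takes glucose-6-phosphate into glycolysis at the node where *ZWF1* takes it into the pentose phosphate pathway. With the same few *ZWF1* counts, its TPM amounted to 32.6%, 18.0% and 37.9% of that of *PGI1* in control libraries, 3.28%, 0% and 1.59% with overexpression and 105%, 204% and 117% without *CRA1*. In TPM, the transcript of the pentose phosphate side was thus the lower of the pair in every control and overexpression library and the higher in every *Δcra1* library. In *Δcra1* replicates 1 and 3, however, *ZWF1* had 22 and 38 counts and *PGI1* had 24 and 37, so the pair was near equal there. *PGI1* itself was called higher in the overexpression strain (log2 fold change 2.72, SE 0.64, edgeR adjusted p = 0.035) and not called in *Δcra1* (-0.59, SE 0.31, edgeR adjusted p = 0.12).

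In the non-oxidative branch, *TKL1* and *TAL1-1* had similar log2 fold changes in each comparison. The log2 TPM ratio of *TKL1* to *TAL1-1* was -0.95 ± 0.52 (SD, n = 3) in control libraries, -0.81 ± 0.69 with overexpression and -1.05 ± 0.24 without *CRA1*, within the spread of the libraries. By the root mean square difference of their centred log2 CPM over the 9 libraries, *TKL1* and *TAL1-1* were the closest pair of members (0.38) and *ZWF1* and *TKL1* the farthest (1.88), while the 2 transaldolases differed by 1.37. Distances of *ZWF1* and *TAL1-2* hold more counting error, as these genes had few counts. *TAL1-2* took 34.5%, 68.8% and 33.3% of the transaldolase counts in the control libraries, which held 29, 16 and 30 such counts. It took 4.49%, 23.5% and 6.06% in the overexpression libraries (of 178, 17 and 66 counts) and 23.8%, 23.1% and 16.7% in the *Δcra1* libraries (of 21, 26 and 30 counts). All 6 shares in the mutant strains lay below the lowest control share, but the exact Clopper-Pearson 95% intervals were wide, for instance 17.3% to 52.8% in control replicate 3 and 5.64% to 34.7% in *Δcra1* replicate 3. In overexpression replicate 1, with the most counts, the interval was 1.96% to 8.66%. These intervals cover counting error only.

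Of the 10 sequences numbered within 5 of the transaldolase pair, 7 could be tested in the overexpression strain and 8 in *Δcra1*. None of the 7 was called in the overexpression strain, 0 passed an unadjusted edgeR p under 0.05, and DESeq2 and limma called 0 of 9. There 5 of the 7 had positive log2 fold changes, with a median of 0.20, where that of all sequences was 0.02. In *Δcra1*, 5 of the 8 had negative ones, with a median of -0.34, where that of all sequences was 0.01. *RCK1* (PP7435_Chr2-0352), named after a protein kinase gene of *Saccharomyces cerevisiae*, was called lower in *Δcra1*, like *TAL1-2*, at -2.30 (SE 0.29), while *AIM45* (PP7435_Chr2-0354) and PP7435_Chr2-0363 were called higher at 1.31 (SE 0.28) and 1.29 (SE 0.35). Their edgeR adjusted p-values were 5.7e-08, 0.00040 and 0.0037. Of all sequences tested in *Δcra1*, 13.1% were called higher and 8.53% lower. PP7435_Chr2-0359, the tested sequence numbered next after *TAL1-2*, had values of -0.26 (SE 0.33) in the overexpression strain and -0.41 (SE 0.36) in *Δcra1* and was not called in either.

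**Figure D4:**
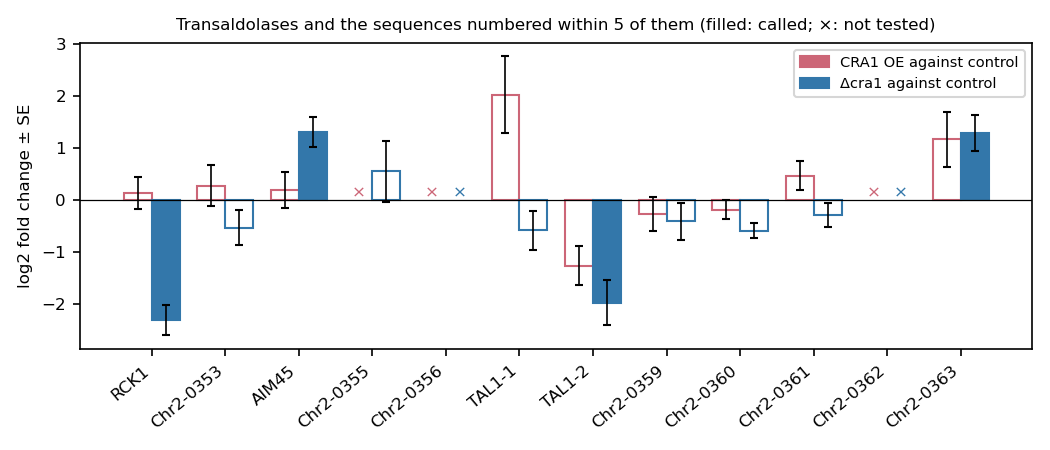
Log2 fold change ± SE from edgeR of *TAL1-1*, *TAL1-2* and the 10 sequences numbered within 5 of them, in the order of their identifiers, in the overexpression and *Δcra1* strains against the same control libraries. Filled bars were called. Beside *TAL1-2* (-1.97), *RCK1* (-2.30), *AIM45* (1.31) and PP7435_Chr2-0363 (1.29) were called in *Δcra1*, and none of these 12 in the overexpression strain.

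Glycolysis shares intermediates with the non-oxidative branch. The 11 glycolytic and fermentative genes set beside the members were picked with their change in these libraries known, so their counts are no independent evidence of a direction. All 11 were called higher in the overexpression strain by edgeR (2 or 1 of them by limma, by pseudocount), where 7.15% of all tested sequences were. The median log2 fold change of the 11 was 2.76, beside 1.43 for the 4 members tested and 0.02 for all sequences. In *Δcra1*, 6 of the 11 were called lower and 2 higher (*HXK1*, hexokinase, at 1.11 and *PFK1*, phosphofructokinase, at 3.63). There 8.53% of all tested sequences were called lower and 13.1% higher. The median of the 11 was -1.40, beside -0.58 for the 5 members and 0.01 for all sequences. The log2 TPM ratio of *TKL1* to *TDH3* (glyceraldehyde-3-phosphate dehydrogenase, PP7435_Chr2-0858) was -3.82 ± 0.52 (SD, n = 3) in control libraries, -4.15 ± 0.17 with overexpression and -1.73 ± 0.15 without *CRA1*. *TKL1* thus kept its proportion to *TDH3* within the spread of the libraries in the overexpression strain, and in *Δcra1*, where *TDH3* was called lower by edgeR (-2.54, SE 0.18, adjusted p = 1.6e-13), it stood nearer to it in every library.

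**Figure D5:**
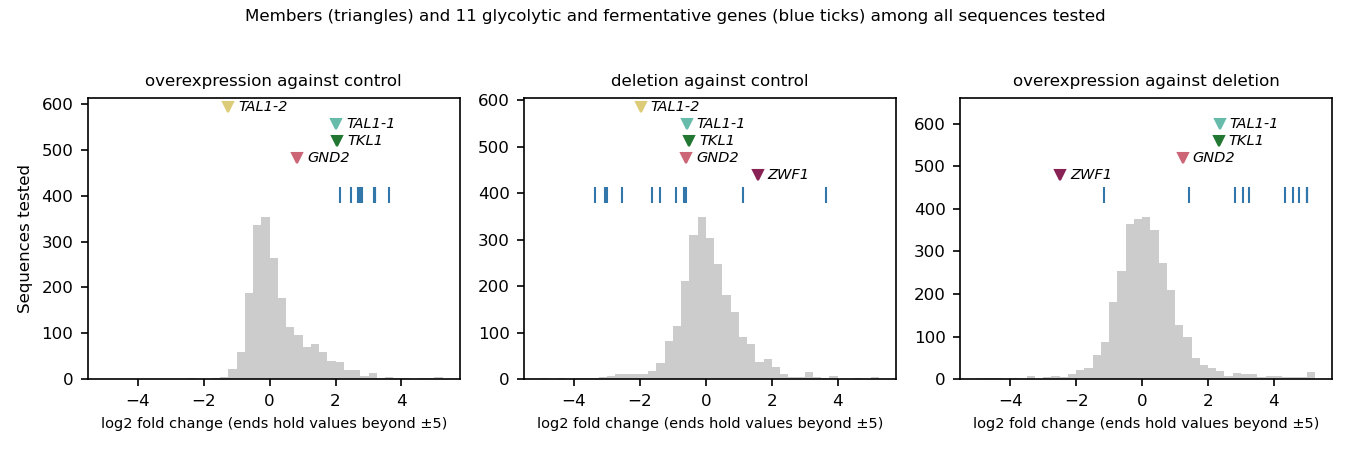
Distribution of log2 fold changes over all sequences tested in each comparison (1986, 2392 and 3071 sequences, grey, in bins of 0.25), with the members as triangles and the 11 glycolytic and fermentative genes as blue ticks. *TKL1* (2.05) and *TAL1-1* (2.02) lay just below the glycolytic genes in the overexpression strain, and *ZWF1* (1.58) lay on the opposite side from *TAL1-2* (-1.97) in *Δcra1*.

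Genes linked to the products of the pathway were followed in 2 lists. Both hold only genes that passed the study's cutoffs in some comparison of these data. Their counts of calls are therefore no independent evidence beside the shares of all sequences. Of 8 genes of aromatic amino acid, histidine and purine synthesis, 5 passed the filter in each comparison with the control. Only *ADE17*, a gene of the last steps to inosine monophosphate in *S. cerevisiae*, was called. It was higher in both mutants (log2 fold changes 2.47 and 1.46, edgeR adjusted p = 0.024 and 0.0080), where 7.15% and 13.1% of all tested sequences were called higher. Both calls used the same control libraries, with only 5, 3 and 4 *ADE17* counts, so *ADE17* passed the filter through the mutant libraries. Between the mutants, 4 of 8 were called higher in the overexpression strain, where 9.8% of all tested sequences were. These were *ARO1* (1.59), *HIS4* (1.94), *HIS5* (2.80) and *ADE8* (1.31). The libraries of the mutants overlapped for *ARO1* and *HIS4*, and *HIS5* had only 4, 1 and 3 counts in *Δcra1*. DESeq2 called 3 higher and 1 lower here, and limma called 0. The list's calls depended on the tool, since DESeq2 called 5 higher in the overexpression strain and 0 in *Δcra1*, and limma called 0 in either. The list's medians were 2.13 in the overexpression strain, 0.40 in *Δcra1* and 1.30 between them, as log2 fold changes.

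Of 7 genes described with NADPH, 3 were called higher in the overexpression strain, namely *ADH6* (2.73), an NADPH-dependent alcohol dehydrogenase in *S. cerevisiae*, PP7435_Chr3-0865 (2.69) and PP7435_Chr3-1227 (1.63), where 7.15% of all tested sequences were called higher. This list was selected for change, so an excess over that share is partly built in. PP7435_Chr3-0865 had only 7, 6 and 3 control counts and passed the filter through the overexpression libraries. DESeq2 called 3 higher and 1 lower in the overexpression strain, and limma called 1 higher. In *Δcra1*, of 6 tested, *GLR1*, which encodes glutathione reductase, an enzyme that spends NADPH, was called higher, at 1.20 (SE 0.20, edgeR adjusted p = 1.4e-05). There 13.1% of all tested sequences were called higher. In the overexpression strain *GLR1* also had a positive value, 0.73 (SE 0.25), and was not called. *ADH6* (-1.35), *AIM14* (-2.27) and PP7435_Chr3-1227 (-2.56) were called lower, where 8.53% of all tested sequences were. The list's median log2 fold change was 0.73 in the overexpression strain and -1.16 in *Δcra1*.

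The sequences whose profile over the 9 libraries lay closest to each member, among 1709 with a mean of at least 20 counts, came from different processes by their names. *TKL1* was closest to *PDC1* (pyruvate decarboxylase, the first step of ethanol formation) at a root mean square difference of 0.33 log2 units, followed by *URA1* (0.37) and *LAT1* (0.41). *TAL1-1* was closest to *HIS4* (0.43) and *ADE12* (0.53), of the histidine and purine routes, and then *RPL15B* (0.55). The nearest to *GND2* was PP7435_Chr1-0499 (0.19), followed by *THS1* (0.24), which encodes a threonyl-tRNA synthetase, and PP7435_Chr4-0922 (0.27). *ZWF1* had the least close partners, *NNT1* (0.53), *TFC7* (0.55) and PP7435_Chr4-1059 (0.56), each of which was highest in the *Δcra1* libraries and lowest in the overexpression libraries. *TAL1-2* was closest to *TFB2* (0.24), *ADY2-3* (0.27) and PP7435_Chr3-0831 (0.29), each of which was highest in the control. These distances are descriptions over 9 libraries of 3 strains, which share their depths and scaling. *ZWF1* and *TAL1-2* themselves fell below the mean of 20 counts, so their distances hold more counting error.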

How the data were processed

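RNA was poly(A)-enriched and sequenced on an Illumina HiSeq with v4 chemistry. Per the labels and the study's methods, the authors sorted reads with SAMtools 1.5, converted them with Picard 2.17.3-3, trimmed them with Trim Galore 0.4.2 and quantified them with kallisto (version 0.44.0 per the processing notes) on the CBS7435 annotation. The strand setting is not given in the sources used here. The deposited tables hold estimated counts and TPM for 5344 sequences, of which 5341 have lengths in multiples of 3, so that lengths are coding lengths. The authors' normalized count tables, 1 per pair of strains, were not used.

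Estimated counts were rounded to whole numbers. Each pair of strains was fitted separately with edgeR 4.0.16 (R 4.3.3), using filterByExpr, TMM factors and its quasi-likelihood test, and p-values were adjusted by the Benjamini-Hochberg method across all tested sequences. A sequence was called at an adjusted p under 0.05 and an absolute log2 fold change of at least 1. The standard error is the log2 fold change divided by the square root of its F statistic. DESeq2 1.42.0, limma 3.58.1 on log2(TPM + 1) and log2(TPM + 0.1), other scalings and filters, a replicate block and leaving out each library were alternatives. Log2 TPM ratios used a pseudocount of 0.1. The profile distances used TMM-scaled log2 CPM with a prior count of 2, centred on each sequence's mean. The fits were tested on simulated data.

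Libraries held 106345 to 223824 counts, which limits genes with few counts. The named genes were the 5 members, *CRA1*, the members called from 4 lists and the 3 sequences nearest to each member. The members and lists were chosen with earlier results of these data known. Gene names came from the study's supplementary gene table, which holds only genes past its cutoffs in at least 1 comparison, so the lists are selected for change. No identifier or member symbol matched the RefSeq table at hand, so no sequences or coordinates are given.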

Additional observations from a re-analysis of the deposited data

How the results depend on the processing

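The overexpression strain against the control had 1 member called. This count was 2 with no filter on low counts, 2 at an adjusted p under 0.1, 3 with 1 fit over all 9 libraries, and 0 with limma at either pseudocount and with a minimum mean of 50 counts, where 2 members were tested. It ran from 0 to 3 when single libraries were left out. In *Δcra1* against the control the 2 calls became 1 (*TAL1-2*) with 1 fit over all 9 libraries and with limma at either pseudocount, and 2 to 3 without single libraries. No member could be tested there at a minimum mean of 50 counts. Between the mutants the 4 calls became 2 at that minimum, 1 (*TKL1*) with limma at either pseudocount, and 2 to 4 without single libraries. No log2 fold change of a member turned its direction in any setting, and the counts under other scalings and DESeq2 stayed within 1.5 times.

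Over all sequences, the 158 calls of the overexpression strain against the control became 414 without a filter, 52 at a minimum mean of 50 counts, 363 with 1 fit over 9 libraries, 275 at an adjusted p under 0.1, 52 and 41 with limma, and 44 to 574 without single libraries. The 517 calls in *Δcra1* became 936 with no fold change cutoff. The 475 calls between the mutants became 147 at the higher minimum, 212 and 200 with limma, and 282 to 775 without single libraries. Scaling by library totals alone moved the median log2 fold change of all sequences in *Δcra1* from 0.01 to 0.15. It also moved the share of higher among all calls from 60.5% to 72.2% there and from 63.4% to 50.5% between the mutants.

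Replicate numbers were not used to pair the samples in the main fits. The correlations below do not settle whether same-numbered overexpression and control cultures were paired. The deviations of same-numbered libraries correlated at 0.25, 0.21 and 0.05 between overexpression and control, at -0.17, -0.05 and -0.10 between *Δcra1* and control, and at -0.49, -0.22 and -0.04 between the mutants. With a replicate block, 2 members were called in the overexpression strain (*TKL1* and *TAL1-1*, the latter at an edgeR adjusted p of 0.0014), 2 in *Δcra1* and 3 between the mutants, where *GND2* was lost (edgeR adjusted p = 0.076). Calls over all sequences were 307, 503 and 373. *ZWF1* in the overexpression strain and *TAL1-2* between the mutants rest on 0 to 10 and 4 to 8 counts per library, where depth limits any statement.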
